A study of Rattus norvegicus with 8 samples.

Results

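The hypoxia response and glycolysis genes described here were a list of 34 genes, chosen by name for their known function, although earlier results of these data were known. The list held 8 genes of oxygen sensing, 7 other targets of the hypoxia-inducible factors (HIFs), 9 genes of glucose transport and upper glycolysis and 10 genes of lower glycolysis and pyruvate fate. Lower glycolysis was counted here from aldolase onward, so *Aldoa*, *Aldoc* and *Tpi1* are in the last group. Of the 34 names, 32 were found among the 32883 genes of the count table, and *Gapdh* and *Pfkfb4* matched no gene name and were not analysed here. A filter on low counts passed 31 of the 32 genes and 13937 of all genes, and *Slc2a3*, a glucose transporter, was the member that did not pass, at 0 to 0.509 CPM (counts per 1e+06 counts of the library).

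The genes were measured by sequencing polyadenylated RNA of the right Achilles tendon of 8 wild-type (WT) young adult male Sprague-Dawley (SD) rats, with 1 library per rat. The 4 rats of the 12 h p.r. group ran uphill on a treadmill for 1 h and were killed 12 h after the run, and the 4 naïve control (NC) rats rested in cages and were killed at the same time. The comparison asked which transcripts of the tendon differed from those of rested rats 12 h after a single run. Total counts were 7350509 to 12951397 per rat, and all CPM values below were scaled with TMM factors, which correct the library sizes for differences in composition.

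HIFs are transcription factors made of an oxygen-regulated alpha subunit, HIF1A or EPAS1, and the stable partner ARNT. With oxygen present, prolyl hydroxylases (the EGLN proteins) mark the alpha subunit, the VHL protein directs its degradation, and HIF1AN, an asparaginyl hydroxylase, blocks its transactivation. With little oxygen the alpha subunit accumulates and raises the transcription of glucose transporters, glycolytic enzymes, and regulators of mitochondrial turnover. Tendon is sparsely vascularised, and its cells are known to use glycolysis. Because the alpha subunits are controlled as proteins, mRNA levels of *Hif1a* and *Epas1* do not measure HIF activity.

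Tenocyte markers were present in every rat, with *Tnmd* at 223 to 391 CPM and *Scx* at 20.3 to 60.6 CPM. Markers of skeletal muscle and of cartilage and bone set 3 libraries apart. The 9 skeletal muscle markers found, of 12 listed, summed to 60082 CPM in 12 h p.r. replicate 3 and to 1617 to 10393 CPM in the other 7 rats, and none of the 9 was at 0 in any rat. The 7 tenocyte markers summed to 13673 CPM in the same library and to 23380 to 42383 CPM in the others. In whole tissue, fewer cells of a type and less RNA per cell cannot be told apart. Fold changes without 12 h p.r. replicate 3 are therefore given beside those of all 8 rats. Leaving that rat out does not even out the muscle markers. They summed to 1883, 3034 and 3201 CPM in 12 h p.r. replicates 2, 1 and 4. In NC replicates 4, 1, 2 and 3 they summed to 1617, 3534, 8220 and 10393 CPM. Fold changes without 12 h p.r. replicate 3 can therefore still hold differences in muscle content. The cartilage and bone markers *Col2a1* and *Ibsp* were at 592 and 196 CPM in NC replicate 3 and at 166 and 62.4 CPM in 12 h p.r. replicate 1, and at no more than 10.8 and 6.37 CPM in the other 6 rats. Blood markers split the rats differently. In NC replicates 1 and 4 and 12 h p.r. replicate 2, erythroid markers summed to 2649, 2874 and 2153 CPM, against 510 to 1019 CPM in the others. Leukocyte markers summed to 3061, 3410 and 2402 CPM in the same rats, against 491 to 1666 CPM in the others. *Lyz2* made up most of these sums, at 2679, 3070 and 2002 CPM in the same rats. Of the other leukocyte markers, NC replicate 3 lay above NC replicate 4 for *Itgam*, *Ptprc*, *Cd68* and *Csf1r* and below it for *Cd14*. The part of blood cells in the levels of the members was not tested.

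In the NC tendon the list was led by enzyme genes filed here under lower glycolysis and pyruvate fate. Per gene length, *Aldoa*, the aldolase that splits fructose 1,6-bisphosphate, had the highest level at 626 ± 226 FPKM (fragments per kilobase of gene, scaled per rat by the authors; SD, n = 4), followed by *Ldha*, the lactate dehydrogenase subunit that favours lactate, at 344 ± 75.9 FPKM. *Bnip3*, *Eno1* and *Pgk1* came next at 157 ± 34.5, 153 ± 12.5 and 152 ± 29.2 FPKM. The ranges of these 3 genes overlapped in the NC rats, and the range of *Ldha* lay above that of *Bnip3*. In the NC rats *Aldoa* followed the order of the summed skeletal muscle markers, given below. The part of muscle RNA in these levels was not tested.

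Of the oxygen sensors, *Epas1* (77.6 ± 4.47 FPKM) lay above *Hif1a* (48.3 ± 3.48 FPKM) in the NC rats, with no overlap. Among the 3 prolyl hydroxylases the mean levels ran from *Egln1* (51.8 ± 6.51 FPKM) through *Egln2* (35.8 ± 2.74 FPKM) to *Egln3* (6.55 ± 0.898 FPKM). *Slc2a1*, the widespread glucose transporter GLUT1, was at 11.7 ± 2.79 FPKM, and *Slc2a3* was at 0.0651 ± 0.0504 FPKM. Hexokinase 1 (*Hk1*, 18.9 ± 3.01 FPKM) lay above hexokinase 2 (*Hk2*, 5.58 ± 1.02 FPKM), as did *Pfkl* (22.1 ± 2.58 FPKM) above *Pfkp* (12.96 ± 0.477 FPKM), the phosphofructokinase genes of the list. At the low end of the tested members was *Ankrd37*, at 4.97 ± 2.55 FPKM. In the order of NC means the ranges of neighbouring genes overlapped at all but 4 steps, which lay after *Ldha*, *Epas1*, *Hif1a* and *Ankrd37*. Levels of *Aldoa*, *Tpi1*, *Pgk1*, *Pgam1*, *Eno1* and *Ldha* are uncertain, since glycolytic enzyme genes have processed copies elsewhere in the genome and the sources used here do not state how reads matching several genes were counted.

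**Figure D1:**
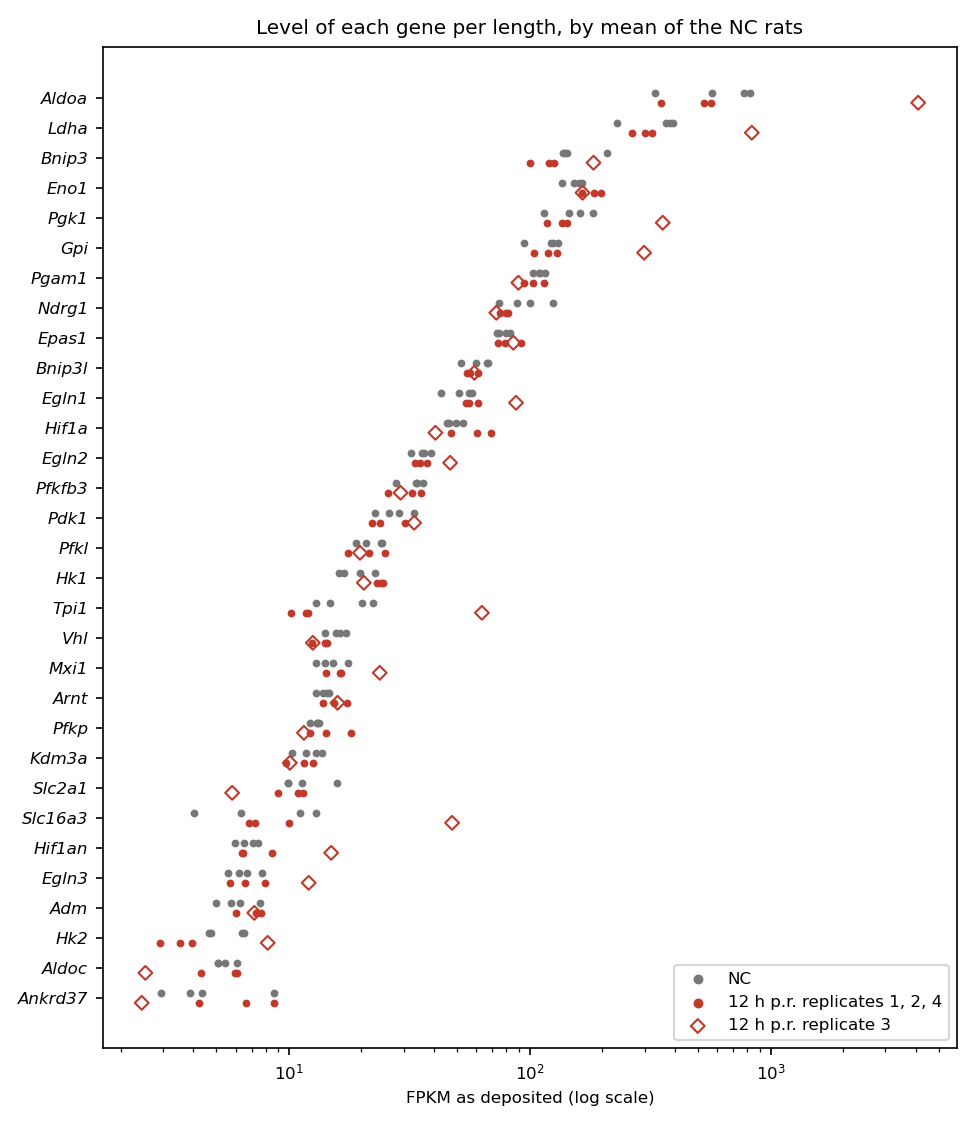
Level of the 31 tested genes per length in each rat (FPKM as deposited, log scale), ordered by the mean of the 4 NC rats. Grey points are NC rats, red points 12 h p.r. rats, and the open diamond 12 h p.r. replicate 3, which lies to the right of the other 7 rats for *Aldoa*, *Ldha*, *Pgk1*, *Gpi*, *Tpi1* and *Slc16a3*.

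None of the 31 tested members passed the test at 12 h p.r., with the smallest adjusted p at 0.488 (edgeR quasi-likelihood, Benjamini-Hochberg over every gene tested). Of all genes, 1 passed, 0.00718% of the genes tested. DESeq2 passed 0.685% of its genes and 0 of the members it tested, and it gave no p-value for *Aldoa*. At an unadjusted edgeR p under 0.05, 1 member was higher (*Hk1*) and 1 was lower (*Vhl*), which is 1 of 31 in each direction beside 5.44% of all genes higher and 4.08% lower. DESeq2 placed 4 members under this unadjusted threshold, adding *Eno1* (higher) and *Ndrg1* (lower), or 2 in each direction. Of its 21046 genes 3.39% were higher and 3.08% lower, but that set included genes below the filter on low counts. Without the pair of rats high in cartilage and bone markers, *Hk1* was the single member under that threshold in edgeR, beside 3.98% of all genes higher and 3.65% lower. There the log2 fold change of *Vhl* was −0.16.

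The fold changes of 19 members were above 0 and of 12 below 0, or 61.3% above 0 beside 54.2% of all genes. The median log2 fold change was 0.17 over the members and 0.02 over all genes tested. Without 12 h p.r. replicate 3, 13 members were above 0 and 18 below 0, beside 50.7% of all genes above 0, and the members' median was −0.04. In those 7 rats *Hk1* was higher at an unadjusted edgeR p under 0.05 beside 5.78% of all genes, and *Hk2*, *Bnip3* and *Tpi1* were lower beside 5.32% of all genes. The count of members at that threshold therefore went from 2 to 4 of 31, with none past the adjusted threshold. All 4 running rats lay above all 4 NC rats for 1 member, *Eno1*, beside 3.51% of all genes, and below them for 0 members, beside 2.55% of all genes.

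**Figure D2:**
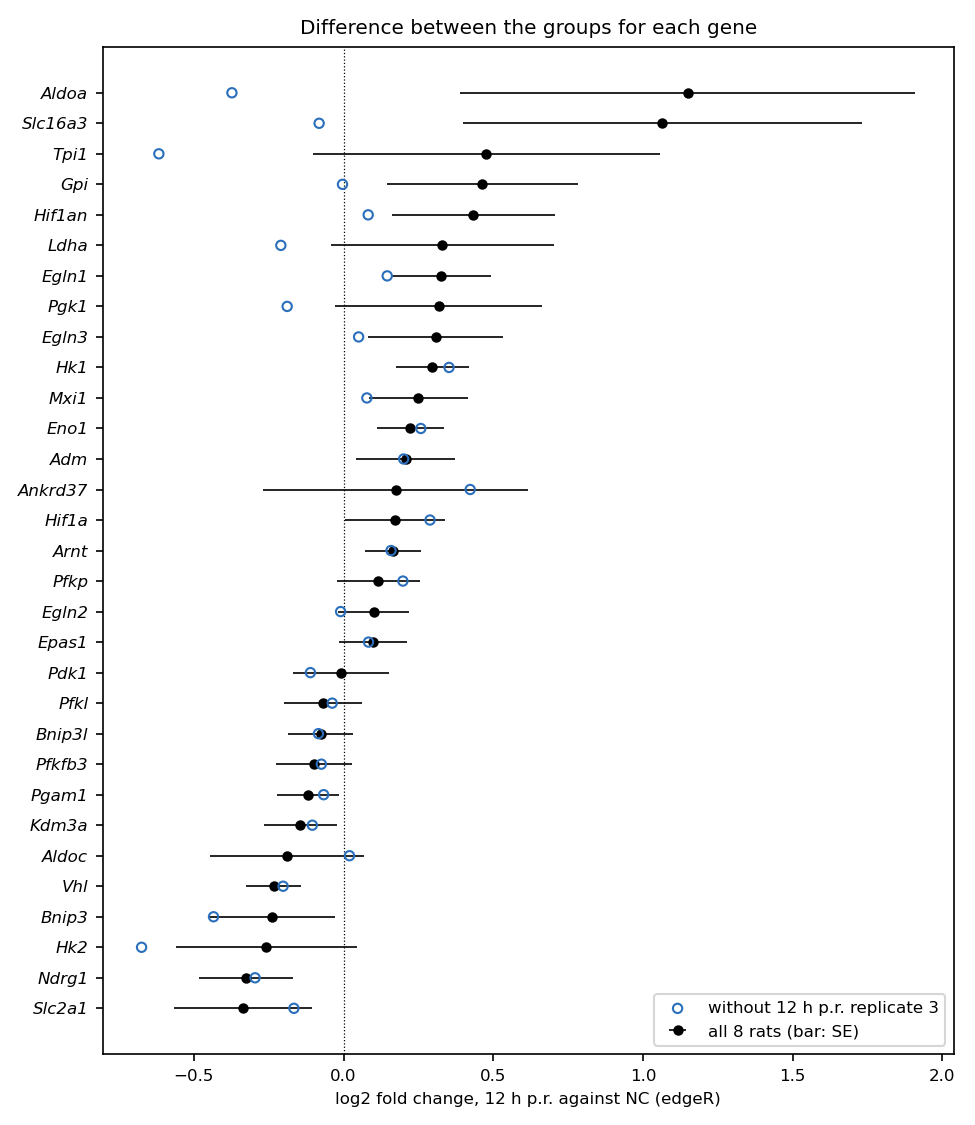
Log2 fold change of 12 h p.r. against NC for the 31 tested genes from edgeR, with black points and bars for all 8 rats (± SE) and open blue circles for the fit without 12 h p.r. replicate 3. *Aldoa* moved from 1.15 to −0.37 and *Slc16a3* from 1.06 to −0.08, while *Hk1*, *Eno1*, *Arnt* and *Vhl* kept similar values.

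The genes of oxygen sensing sat close to their NC levels in most rats. *Hif1a* was at 189, 275, 162 and 243 CPM in 12 h p.r. replicates 1 to 4 and at 184, 197, 211 and 180 CPM in NC replicates 1 to 4. The 12 h p.r. rats held both the 2 highest and the lowest values, and the log2 fold change was 0.17 ± 0.17 (SE, adjusted p = 0.772 in edgeR), or 0.29 without replicate 3. *Epas1*, which encodes HIF-2 alpha and is strongly expressed in endothelium, was at 457, 364, 420 and 389 CPM at 12 h p.r. and at 359, 390, 366 and 407 CPM in NC. The groups overlapped, with a log2 fold change of 0.10 ± 0.11 (SE, adjusted p = 0.813 in edgeR), or 0.08 without replicate 3. The 7 endothelial markers found, of 8 listed, summed to 1195 to 1473 CPM at 12 h p.r. and to 1185 to 1290 CPM in NC, and their part in the *Epas1* level was not tested. *Arnt*, the shared partner subunit, was at 38.1, 42.7, 39.0 and 33.9 CPM at 12 h p.r. and at 31.8, 34.04, 36.1 and 35.0 CPM in NC. In *Arnt*, 3 of the 4 12 h p.r. rats lay above all NC rats, and the log2 fold change was 0.17 ± 0.09 (SE, adjusted p = 0.608 in edgeR), or 0.16 without replicate 3.

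*Vhl* was the member of this group with a lower value. Its levels were 36.4, 41.8, 36.4 and 41.0 CPM at 12 h p.r. and 45.3, 40.8, 49.7 and 46.9 CPM in NC. A single NC rat, replicate 2, lay within the range of the 12 h p.r. rats. The log2 fold change was −0.23 ± 0.09 (SE), with an unadjusted edgeR p of 0.0322 and an adjusted p of 0.488. Without 12 h p.r. replicate 3 it was −0.20, and *Vhl* was no longer under the unadjusted threshold.

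The hydroxylases that oppose HIF were highest in 12 h p.r. replicate 3. *Egln1* was at 36.7, 37.6, 58.8 and 40.8 CPM at 12 h p.r. and at 37.5, 34.04, 38.4 and 28.8 CPM in NC. *Egln2* was at 66.8, 70.1, 93.0 and 74.9 CPM at 12 h p.r. and at 72.4, 77.3, 64.1 and 70.7 CPM in NC. In both genes the other 3 running rats lay within or just above the NC range. *Egln3*, itself a HIF target, was at 16.1, 18.5, 34.1 and 22.4 CPM at 12 h p.r. and at 17.4, 21.8, 18.8 and 15.8 CPM in NC. *Hif1an* was at 8.65, 11.4, 20.1 and 8.63 CPM at 12 h p.r. and at 9.45, 8.69, 9.95 and 7.97 CPM in NC. Replicate 3 of 12 h p.r. was thus 1.57 times the median of the other 7 rats for *Egln1*, 1.84 times for *Egln3* and 2.31 times for *Hif1an*. The log2 fold changes of these 3 genes were 0.33, 0.31 and 0.43 in all 8 rats and 0.15, 0.05 and 0.08 without it, and that of *Egln2* went from 0.10 to −0.01. Over the 8 oxygen sensing genes, 7 were above 0 with a median of 0.17, and 6 were above 0 with a median of 0.08 without that rat.

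Among the other HIF targets, 3 were above and 4 below 0, with a median of −0.08, and the counts and the median were the same to this precision without replicate 3. *Adm*, which encodes the vasodilator adrenomedullin, was at 10.2, 8.42, 9.98 and 10.7 CPM at 12 h p.r. and at 10.5, 7.96, 6.93 and 8.65 CPM in NC, with a log2 fold change of 0.21, or 0.20 without replicate 3. *Bnip3*, a mitophagy receptor, was at 164, 196, 298 and 205 CPM at 12 h p.r. and at 232, 339, 226 and 222 CPM in NC. For *Bnip3*, 3 of the running rats lay below all NC rats and replicate 3 above 3 of them, and the log2 fold change was −0.24 ± 0.21 (SE, adjusted p = 0.751 in edgeR), or −0.43 without replicate 3. *Ndrg1*, a stress-responsive gene, was at 253, 238, 229 and 257 CPM at 12 h p.r. and at 316, 235, 279 and 393 CPM in NC. The running rats lay below 3 of the 4 NC rats, with a log2 fold change of −0.32 ± 0.16 (SE, adjusted p = 0.553 in edgeR), or −0.30 without replicate 3. *Bnip3l*, *Ankrd37*, *Kdm3a* (a histone demethylase) and *Mxi1* (a MYC antagonist) had log2 fold changes of −0.08, 0.17, −0.14 and 0.25, or −0.08, 0.42, −0.10 and 0.08 without replicate 3. *Ankrd37* spread most within its groups, at 2.14 to 7.63 CPM at 12 h p.r. and 2.56 to 7.59 CPM in NC.

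In glucose transport and upper glycolysis 3 members were above and 4 below 0, with a median of −0.07, and 2 were above 0 with a median of −0.04 without replicate 3. *Slc2a1* was at 23.5, 29.7, 15.1 and 28.3 CPM at 12 h p.r. and at 25.6, 25.8, 29.5 and 41.0 CPM in NC. The lowest value was that of 12 h p.r. replicate 3 and the highest that of NC replicate 4, the rats with the highest and the lowest summed muscle markers. NC replicate 4 also had the highest summed erythroid and leukocyte markers, at 2874 and 3410 CPM, and *Lyz2* made up most of the leukocyte sum. The lowest leukocyte sum, 491 CPM, was that of 12 h p.r. replicate 3. These differences in tissue content cannot be told apart here. The log2 fold change of *Slc2a1* was −0.34 ± 0.23 (SE, adjusted p = 0.677 in edgeR), the most negative of the list, and −0.17 without replicate 3.

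The hexokinases, which trap glucose in the cell as its phosphate, had fold changes of opposite sign. *Hk1* was at 63.0, 65.2, 55.0 and 66.5 CPM at 12 h p.r. and at 53.0, 43.3, 61.3 and 45.6 CPM in NC. All running rats except replicate 3 lay above all NC rats, and the log2 fold change was 0.30 ± 0.12 (SE), with an unadjusted edgeR p of 0.0392 and an adjusted p of 0.499. *Hk2*, the hexokinase that HIF and insulin induce, was at 21.8, 19.3, 44.4 and 15.9 CPM at 12 h p.r. and at 25.8, 35.5, 25.4 and 34.8 CPM in NC. Here replicate 3 was the highest rat and the other 3 running rats lay below all NC rats. The log2 fold change was −0.26 ± 0.30 (SE, adjusted p = 0.817 in edgeR) in all 8 rats and −0.67 without replicate 3, where the unadjusted edgeR p was 0.00370 and the adjusted p 0.349. The *Hk2* to *Hk1* ratio, as log2 of FPKM with 0.1 added, was −2.52, −2.74, −1.32 and −3.04 at 12 h p.r. and −2.04, −1.29, −2.26 and −1.39 in NC, a difference of −0.66 (2-sided exact permutation p = 0.171, 0.8286 after adjustment over 7 ratios). The smallest p this design allows is 0.0286. Without replicate 3 the difference was −1.02 (2-sided exact permutation p = 0.0571).

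For 5 other ratios between relatives the difference was smaller beside the spread between rats. *Epas1* to *Hif1a*, *Egln3* to *Egln1*, *Pfkp* to *Pfkl*, *Aldoc* to *Aldoa* and *Bnip3* to *Bnip3l* had log2 differences of −0.05, −0.06, 0.17, −0.73 and −0.18, with exact permutation p-values of 0.429 to 0.8286. Without replicate 3 these differences were −0.20, −0.11, 0.23, 0.32 and −0.34. The ratio of *Slc2a3* to *Slc2a1* is not read, since *Slc2a3* had 0 to 6 counts per rat and the added constant sets most of its value.

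*Pfkfb3*, which makes the activator of phosphofructokinase, was at 168, 122, 137 and 153 CPM at 12 h p.r. and at 160, 161, 132 and 170 CPM in NC. The groups overlapped, with a log2 fold change of −0.10 ± 0.13 (SE, adjusted p = 0.835 in edgeR), or −0.07 without replicate 3. *Pfkl* and *Pfkp* had log2 fold changes of −0.07 and 0.12, or −0.04 and 0.20 without that rat. *Gpi*, the isomerase that follows hexokinase, was at 264, 211, 603 and 240 CPM at 12 h p.r. and at 251, 247, 266 and 191 CPM in NC. Its log2 fold change of 0.46 rested on replicate 3, and without that rat it was −0.0036.

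**Figure D3:**
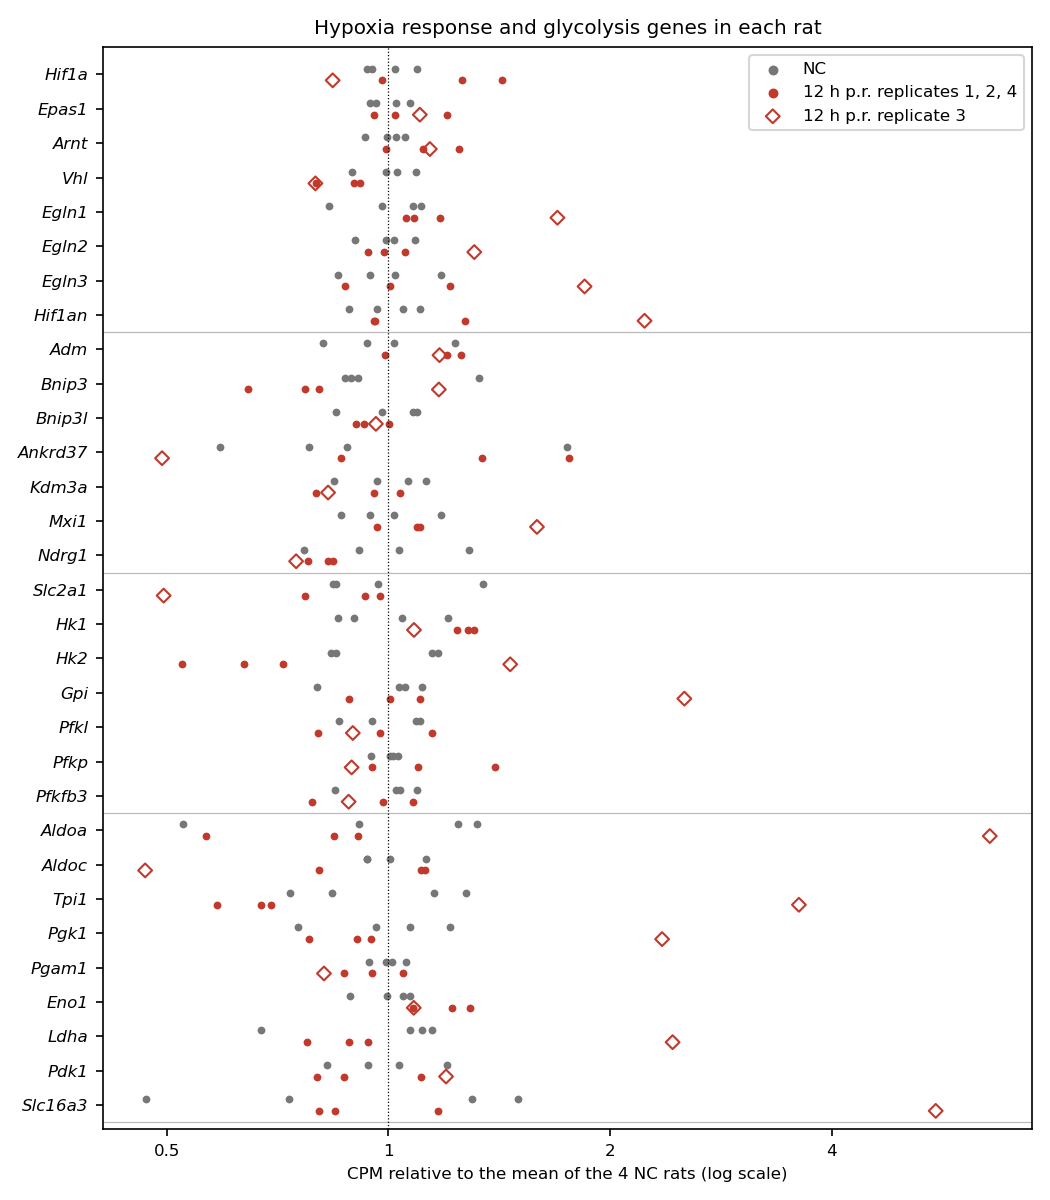
CPM of the 31 tested genes in each rat relative to the mean of the 4 NC rats (log scale), grouped by role from oxygen sensing at the top to lower glycolysis and pyruvate fate at the bottom. Grey points are NC rats, red points 12 h p.r. replicates 1, 2 and 4, and open diamonds 12 h p.r. replicate 3, which is the highest rat for 12 of the 31 genes and the lowest for 8.

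Lower glycolysis and pyruvate fate held the largest fold changes of the list, and most of them rested on a single rat. *Aldoa* was at 918, 570, 6622 and 852 CPM at 12 h p.r. and at 922, 1255, 1331 and 532 CPM in NC. Replicate 3 of 12 h p.r. was 7.22 times the median of the other 7 rats, and the other running rats lay within the NC range. The log2 fold change was 1.15 ± 0.76 (SE, adjusted p = 0.669 in edgeR) with replicate 3 and −0.37 without it. *Slc16a3*, the lactate exporter MCT4, was at 14.9, 15.7, 102 and 21.6 CPM at 12 h p.r. and at 13.5, 24.0, 27.7 and 8.65 CPM in NC. Replicate 3 was 6.54 times the median of the others, and the log2 fold change was 1.06 ± 0.67 (SE, adjusted p = 0.648 in edgeR), or −0.08 without it.

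*Tpi1*, which interconverts the triose phosphates, was at 17.6, 14.9, 91.6 and 17.1 CPM at 12 h p.r. and at 21.3, 32.3, 29.2 and 18.7 CPM in NC. The other 3 running rats lay below all NC rats, and the log2 fold change was 0.48 ± 0.58 (SE, adjusted p = 0.824 in edgeR), or −0.62 without replicate 3. *Pgk1*, an ATP-forming kinase, was at 233, 200, 605 and 243 CPM at 12 h p.r. and at 248, 275, 312 and 194 CPM in NC. *Ldha* was at 487, 427, 1341 and 516 CPM at 12 h p.r. and at 590, 632, 613 and 370 CPM in NC. For both genes replicate 3 was far above the rest, and the log2 fold changes of 0.32 and 0.33 became −0.19 and −0.21 without it.

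The remaining genes of this group varied less. *Eno1*, the broadly expressed enolase, was at 354, 313, 314 and 374 CPM at 12 h p.r. and at 310, 289, 304 and 257 CPM in NC. The groups did not overlap, although the lowest running rat and the highest NC rat were close, and the log2 fold change was 0.22 ± 0.11 (SE, adjusted p = 0.570 in edgeR), or 0.26 without replicate 3. *Pdk1*, which inhibits the entry of pyruvate into the mitochondrial cycle, was at 48.4, 35.0, 52.4 and 38.1 CPM at 12 h p.r. and at 45.3, 52.5, 41.1 and 36.1 CPM in NC. Its log2 fold change was −0.01 ± 0.16 (SE), or −0.11 without replicate 3, and the groups overlapped throughout. *Pgam1* and *Aldoc* had log2 fold changes of −0.12 and −0.19, or −0.07 and 0.02 without that rat. Over the 9 tested genes of this group, 6 were above 0 with a median of 0.32, and 2 were above 0 with a median of −0.11 without replicate 3.

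The share of all counts taken by the members was 1.08% in 12 h p.r. replicate 3 and 0.403% to 0.526% in the other rats. Of the 100422 member counts in 12 h p.r. replicate 3, 55721 were of *Aldoa*. That rat was the highest of the 8 for 38.7% of the tested members and for 21.7% of all genes, and the lowest for 25.8% and 19.3%. NC replicate 4, with the lowest summed muscle markers, was the lowest rat for 10 of the 31 members (32.3%) and for 12.3% of all genes. That rat also had the highest summed erythroid and leukocyte markers, the leukocyte sum being mostly *Lyz2*. The order of *Aldoa* followed that of the summed muscle markers in the NC rats, which were 1617, 3534, 8220 and 10393 CPM where *Aldoa* was 532, 922, 1255 and 1331 CPM. In the 12 h p.r. rats the summed markers were 1883, 3034, 3201 and 60082 CPM where *Aldoa* was 570, 918, 852 and 6622 CPM.

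The slope on a muscle score, the mean log2 CPM of the 9 markers, was fitted with the group in the model, a fit chosen after the values were seen. At an adjusted p under 0.05 in edgeR, *Aldoa*, *Slc16a3*, *Ldha*, *Pgk1*, *Tpi1* and *Gpi* rose with the score, 6 of 31 members beside 1.38% of all genes other than the markers. The steepest was *Aldoa*, by 0.51 ± 0.06 log2 units per unit of the score (SE, adjusted p = 0.00338 in edgeR). No member fell with the score at this threshold, beside 0.101% of all genes, and *Slc2a1* had a slope of −0.15 ± 0.03 (SE, adjusted p = 0.0588 in edgeR). In the 7 rats without 12 h p.r. replicate 3, 1 member rose at this threshold, *Aldoa*, beside 0.112% of all genes. Its slope was 0.33 ± 0.04 (SE, adjusted p = 0.0438 in edgeR). In those rats 0 members fell, beside 0.0141% of all genes. *Slc16a3*, *Ldha*, *Tpi1*, *Pgk1* and *Gpi* kept positive slopes there, of 0.36, 0.18, 0.17, 0.15 and 0.11 (adjusted p = 0.364 to 0.741 in edgeR). *Hk1*, *Eno1* and *Pgam1* had slopes of −0.01, 0.01 and −0.01 in the 8 rats. The part of muscle RNA in the group differences was not tested beyond these fits.

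**Figure D4:**
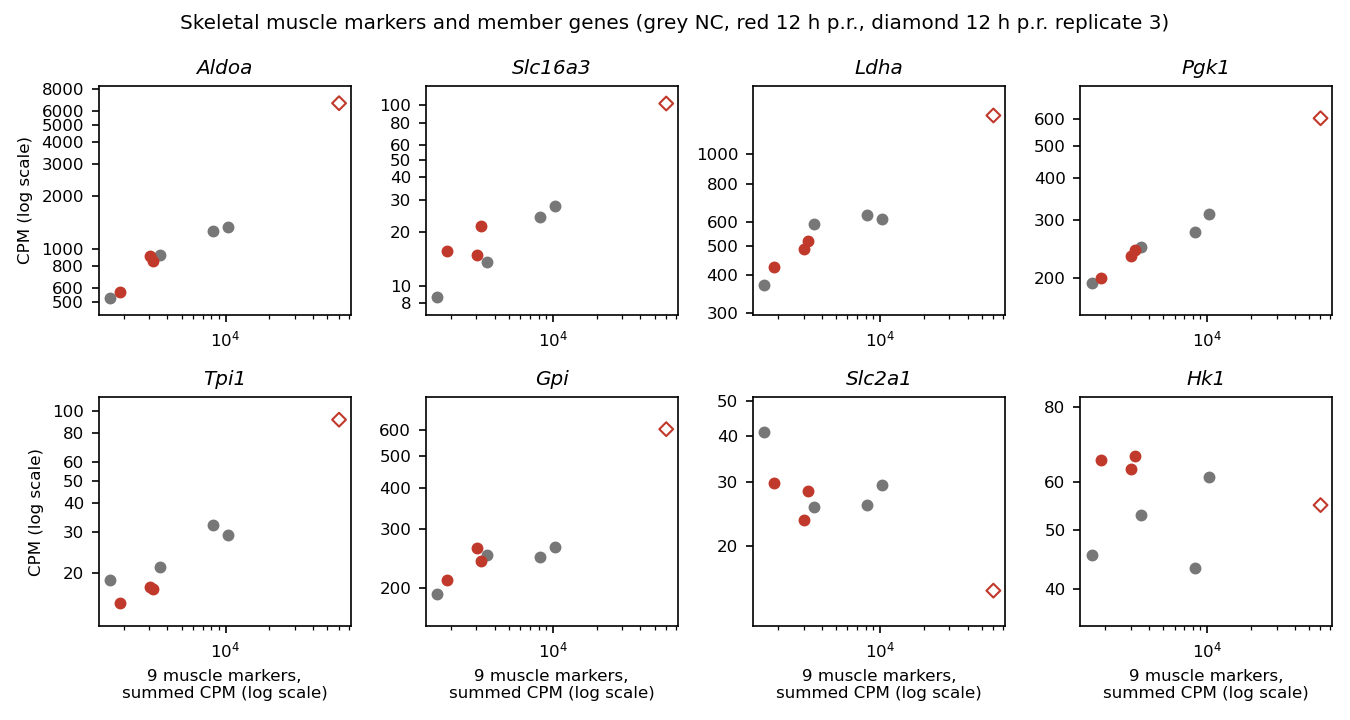
CPM of 8 member genes against the summed CPM of the 9 skeletal muscle markers in each rat, both on log scales, with grey points for NC, red points for 12 h p.r. and an open diamond for 12 h p.r. replicate 3. *Aldoa*, *Slc16a3*, *Ldha*, *Pgk1*, *Tpi1* and *Gpi* rise toward the diamond, *Slc2a1* is lowest there, and *Hk1* shows no such order.

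HIF binds a short DNA core, and the 5 letters ACGTG or GCGTG were searched on both strands in the 250 bases before the start of each gene, in windows of the RefSeq annotation of GRCr8. A window was found for 30 of the 34 members, and 19 of them (63.3%) held at least 1 match, beside 39.6% of all 27457 genes with a window. The 4 members with 4 or more matches in a window, a number reached by 2.44% of all windows, were *Ankrd37*, *Bnip3*, *Ldha* and *Slc2a1*. They are shown because their promoters carry the densest HIF core letters of the list while their fold changes differed in sign. Capitals mark the matches, CACGTG holds an overlapping match on each strand, and each window is written 5′ to 3′ on the strand of its gene.
Ankrd37 promoter (GRCr8, chr16:53001257-53001506, plus strand): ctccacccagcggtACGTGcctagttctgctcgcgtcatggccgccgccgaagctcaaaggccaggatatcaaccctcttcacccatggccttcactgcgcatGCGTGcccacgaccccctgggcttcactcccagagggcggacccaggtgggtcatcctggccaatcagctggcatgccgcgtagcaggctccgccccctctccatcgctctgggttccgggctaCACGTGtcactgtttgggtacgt
Bnip3 promoter (GRCr8, chr1:203154963-203155212, minus strand): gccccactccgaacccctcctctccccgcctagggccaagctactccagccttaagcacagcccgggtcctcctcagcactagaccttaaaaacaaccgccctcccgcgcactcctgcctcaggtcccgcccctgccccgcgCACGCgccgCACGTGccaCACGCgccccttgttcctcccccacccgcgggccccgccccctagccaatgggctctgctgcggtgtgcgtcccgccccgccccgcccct
Ldha promoter (GRCr8, chr1:106507842-106508091, plus strand): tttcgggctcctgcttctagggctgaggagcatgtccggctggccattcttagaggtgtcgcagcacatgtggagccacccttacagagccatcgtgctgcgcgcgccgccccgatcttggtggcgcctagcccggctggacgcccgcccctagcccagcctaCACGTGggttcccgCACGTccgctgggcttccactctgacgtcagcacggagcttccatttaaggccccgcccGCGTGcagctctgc
Slc2a1 promoter (GRCr8, chr5:138002272-138002521, plus strand): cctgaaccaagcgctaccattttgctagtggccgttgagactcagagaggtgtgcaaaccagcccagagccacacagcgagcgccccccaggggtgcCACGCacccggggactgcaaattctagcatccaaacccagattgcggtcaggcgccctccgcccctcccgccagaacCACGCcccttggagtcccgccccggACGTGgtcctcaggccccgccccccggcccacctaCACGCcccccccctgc
The 4 genes had log2 fold changes of 0.17, −0.24, 0.33 and −0.34 in the order shown, and of 0.42, −0.43, −0.21 and −0.17 without 12 h p.r. replicate 3. On the muscle score *Ldha* rose by 0.25 ± 0.03 log2 units per unit (SE, adjusted p = 0.00896 in edgeR), and the slopes of *Bnip3* and *Ankrd37* were 0.10 and −0.15. The windows of *Slc16a3*, *Tpi1* and *Gpi* held 0 matches, and those of *Aldoa* held 1 match in 1 of 3 windows. Such a match is a description of the letters and not of binding.

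Genes of the same pathways outside the list were counted as well, from lists chosen with earlier results known. Of 33 other hypoxia-responsive genes 31 were tested, and 0 passed the adjusted threshold. At an unadjusted edgeR p under 0.05, 3 were higher and 2 lower, beside 5.44% and 4.08% of all genes, and the median log2 fold change was 0.09 beside 0.02 over all genes. Without 12 h p.r. replicate 3, 3 were higher and 4 lower, beside 5.78% and 5.32% of all genes, with a median of 0.05. *Angptl4*, a secreted inhibitor of lipoprotein lipase, was at 12.4, 12.6, 82.0 and 51.8 CPM at 12 h p.r. and at 13.05, 11.0, 7.91 and 5.17 CPM in NC. Its log2 fold change was 2.101 ± 0.63 (SE, adjusted p = 0.433 in edgeR), carried by replicates 3 and 4, and 1.48 without replicate 3. *Plin2*, a lipid droplet coat protein, and *Maff*, a small MAF transcription factor, had log2 fold changes of 0.31 and 0.58, or 0.27 and 0.56 without that rat. *Gbe1*, the glycogen branching enzyme, was at 45.1, 45.5, 44.2 and 37.7 CPM at 12 h p.r. and at 54.7, 66.4, 52.2 and 49.9 CPM in NC. The collagen prolyl hydroxylase *P4ha2* was at 42.2, 40.4, 29.0 and 42.2 CPM at 12 h p.r. and at 53.2, 44.8, 55.3 and 45.0 CPM in NC. All 4 running rats lay below all NC rats for these 2 of the 31 genes, beside 2.55% of all genes. The log2 fold change was −0.37 in each (adjusted p = 0.433 and 0.477 in edgeR), and −0.38 and −0.25 without replicate 3, the lowest rat for *P4ha2*. *Vegfa*, the vascular growth factor, had a log2 fold change of −0.12 ± 0.24 (SE), or −0.21 without replicate 3.

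Of 27 other genes of glycolysis and pyruvate use, 24 were tested, with 12 above and 12 below 0 beside 54.2% of all genes above 0, a median of −0.01 and 0 past the adjusted threshold. Without 12 h p.r. replicate 3, 5 were above and 19 below 0 beside 50.7% of all genes above 0, with a median of −0.28. *Pdk2*, a pyruvate dehydrogenase kinase, was the single gene under an unadjusted edgeR p of 0.05, 1 of 24 beside 5.44% of all genes higher, with a log2 fold change of 0.83 ± 0.34 (SE, adjusted p = 0.492 in edgeR) and 0.34 without replicate 3, where it was no longer under it. In those 7 rats 5 genes were lower at that threshold, beside 5.32% of all genes, with 0 past the adjusted one. They were *Tigar* (−0.53), which lowers fructose 2,6-bisphosphate, the glucose transporter *Slc2a4* (−0.48), and *Pdha1* (−0.29), *Pdhb* (−0.60) and *Dlat* (−0.36) of the pyruvate dehydrogenase complex, named after their values were seen. The muscle isoforms stood highest in that rat. *Pfkm* was at 1042 CPM there and 51.9 to 180 CPM in the others, *Eno3* at 2196 against 76.3 to 448 CPM, and *Pgam2* at 835 against 13.8 to 139 CPM. Without that rat their log2 fold changes were −0.47, −0.93 and −0.85, from 1.57, 1.39 and 1.76 with it. In those 7 rats the summed muscle markers were still uneven, at 1883 to 3201 CPM at 12 h p.r. and 1617 to 10393 CPM in NC. The part of muscle RNA in these lower values was not tested.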

How the data were processed

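Polyadenylated RNA of 8 rat Achilles tendons was sequenced, 4 at 12 h p.r. and 4 NC, with groups and replicate numbers taken from the labels. The authors aligned stranded reads to Rnor_6.0 with HISAT2 2.1.0 and deposited whole read counts per Ensembl gene from featureCounts 1.6.3. They also deposited FPKM values, in which each count was scaled by the length of its gene and by a factor per rat that matched a DESeq2 size factor. How multi-mapping reads and strand were handled in the counting is not given in the sources used here. The table of the authors' own comparison (DESeq2 1.30.1) was not used. Genes were filtered with filterByExpr, scaled with TMM and compared with the quasi-likelihood test of edgeR 4.0.16 without covariates (R 4.3.3), with Benjamini-Hochberg adjustment over all 13937 genes. The standard error came from the F statistic. The study used DESeq2, run here as version 1.42.0 as an alternative, with limma 3.58.1 on log2(FPKM + 1) and log2(FPKM + 0.1), other scalings and filters, a replicate block, a skeletal muscle score as a covariate, and each rat left out. Scripts were tested on simulated data. By rule, values in every rat were given for members under an unadjusted p of 0.05 and for the 3 with the largest fold changes in each direction. The rule also covered the oxygen sensing genes and a fixed set of HIF targets and enzymes, with the rest by counts and ranges. Values of *Gpi*, *Eno1* and of genes outside the list were added after they were seen. Those of *Egln2* and *Tpi1* were also added then, although the rule covers them. The members and lists were chosen with earlier results of these data known. With 4 rats per group, a p-value sets the difference between the groups against the spread between these rats.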

Additional observations from a re-analysis of the deposited data

Results flagged for a closer look

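In the 62 groups of 4 values (31 genes in 2 groups), 4 had a rat far from the other 3 by Dixon's criterion on log2(CPM + 0.5), beside 3.1 expected by chance. They were *Bnip3* in NC replicate 2 (339 CPM, with the nearest rat at 232 CPM), *Tpi1* in 12 h p.r. replicate 3 (91.6 CPM, nearest 17.6 CPM), *Ldha* in 12 h p.r. replicate 3 (1341 CPM, nearest 516 CPM) and *Ldha* in NC replicate 4 (370 CPM, nearest 590 CPM). On the CPM scale, tried after the data were seen, 8 groups had such a rat, these 4 and *Aldoa*, *Slc16a3*, *Pgk1* and *Gpi* in 12 h p.r. replicate 3. The summed skeletal muscle markers were highest of the 8 rats in 12 h p.r. replicate 3 and lowest in NC replicate 4, and they summed to 8220 CPM in NC replicate 2.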

How the results depend on the processing

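No member passed the adjusted threshold under any of the 19 alternatives, where the smallest adjusted p of a member was 0.349, against 0.488 as reported. DESeq2, which is 1 of them, gave no p-value for *Aldoa*. The number of members higher at an unadjusted p under 0.05, 1 as reported, was 2 with DESeq2 (3.39% of its 21046 genes), 0 with upper-quartile factors (5.17% of all genes), 0 with the replicate block (3.94%), 3 with the muscle score as a covariate (5.58%) and 0 to 1 with each rat left out (3.69% to 5.78%). The number lower, 1 as reported, was 2 with DESeq2 (3.08%), 0 with the replicate block (3.05%), 2 with the muscle score (4.61%), 0 without the pair high in cartilage and bone markers (3.65%) and 0 to 3 with each rat left out (2.58% to 5.32%). *Hk1* stayed under that threshold without 12 h p.r. replicate 3 or NC replicate 3, and *Vhl* without 12 h p.r. replicates 2 or 4 or NC replicate 2, and neither did without any other single rat. The median log2 fold change of the members, 0.17 as reported, was 0.0873 and 0.0886 with a pseudocount of 1 and of 0.1 in limma's fit of log2 FPKM, 0.0946 with the replicate block, 0.0897 with the muscle score and −0.038 to 0.172 with each rat left out, the lowest without 12 h p.r. replicate 3. With the muscle score in all 8 rats, the members higher at an unadjusted p under 0.05 were *Slc16a3* (0.53), *Egln1* (0.26) and *Hk1* (0.30). *Vhl* (−0.23) and *Slc2a1* (−0.29) were lower, and *Tpi1* turned to −0.10. With each rat left out, 12 members changed sign: *Egln2* (−0.0099 to 0.157), *Ankrd37* (−0.13 to 0.57), *Gpi* (−0.0036 to 0.63), *Pfkl* (−0.17 to 0.0083), *Pfkp* (−0.029 to 0.20), *Aldoa* (−0.37 to 1.47), *Aldoc* (−0.33 to 0.0197), *Tpi1* (−0.62 to 0.73), *Pgk1* (−0.19 to 0.49), *Ldha* (−0.21 to 0.50), *Pdk1* (−0.11 to 0.0896) and *Slc16a3* (−0.0817 to 1.33). Of these, 8 changed sign without 12 h p.r. replicate 3. The log2 differences of the ratios *Epas1* to *Hif1a* (−0.20 to 0.13), *Egln3* to *Egln1* (−0.12 to 0.0316), *Slc2a3* to *Slc2a1* (−0.0194 to 0.57, set mostly by the added constant) and *Aldoc* to *Aldoa* (−1.27 to 0.32) also changed sign. Rats sharing a replicate number did not deviate together (correlations of their deviations over all genes of 0.07, −0.20, 0.13 and 0.09). The rats were treated as unpaired, and whether a replicate number marks a shared batch was not tested. Apart from the muscle fits, the cause of these changes was not tested. At 7350509 to 12951397 counts per rat, *Slc2a3* was too low to be tested.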
